A study of Homo sapiens with 6 samples.

Results

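The genes described here sense double-stranded RNA in the cytosol or carry out the response to it. The group was set as 10 symbols (RIGI, IFIH1, DHX58, MAVS, TBK1, IRF3, ADAR, OAS1, OAS3 and ISG15), and 9 of them were found among the 12486 genes of the deposited table by matching Entrez identifiers to RefSeq symbols. OAS1 has no row in that table and was not analysed here. RNA-seq was performed on K562, a human Bcr-Abl-positive chronic myeloid leukemia cell line, with 3 libraries of control cells and 3 of knockdown cells. Control cells stably expressed an shRNA against luciferase (sh-luc), and knockdown cells stably expressed an shRNA against lncRNA-IUR1 (sh-IUR1), which the sample labels call lncRNA-up91. All 6 libraries therefore come from Bcr-Abl-positive cells that make a short hairpin RNA, and a library without a hairpin was not analysed here. The methods give 1 hairpin sequence for human lncRNA-IUR1, so an effect of the knockdown and an effect of that hairpin cannot be told apart. In each group 1 library carries no replicate number, and the others are r1 and r2. The values are FPKM, fragments normalised for transcript length and library size, so levels can be compared between genes of different length.

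Long double-stranded RNA is rare in the cytosol of a healthy cell and is a common product of viral replication. The helicases RIG-I (RIGI) and MDA5 (IFIH1) bind it and pass the signal to MAVS, an adaptor on the mitochondrial surface. MAVS recruits the kinase TBK1, which phosphorylates the transcription factor IRF3, and IRF3 then drives transcription of type I interferon. Interferon in turn raises the transcription of many genes of the same pathway, among them the sensors, the oligoadenylate synthetases and ISG15. ADAR edits adenosine to inosine in double-stranded RNA and keeps the cell's own transcripts from setting off the sensors.

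Interferon acts on many of these genes through the interferon-stimulated response element, whose core was searched here as GAAANNGAAA on both strands, overlapping matches included. The search used the RefSeq promoter windows of GRCh38.p14, which reach from 250 bases before to 50 bases after a transcription start. Windows were present for 8 of the 10 genes (DHX58 and IRF3 had no entry), and the core was found in 3 of these 8, namely ISG15, IFIH1 and OAS3. Of all 27305 genes with a window 4.38% held it in at least 1 window, and of all 35116 windows 3.57% held it. The 0 matches in the windows of RIGI, TBK1, MAVS, ADAR and OAS1 say only that these letters are not there. The matches are printed 5′ to 3′ on the strand of the gene, in 30 bases each, because they show which genes of the group carry this sequence. Capitals mark the core.
ISG15, chr1:1013377-1013406, plus strand: gcctcggGAAAGGGAAACCGAAActgaagc
IFIH1, chr2:162318821-162318850, minus strand: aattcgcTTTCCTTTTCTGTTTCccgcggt
IFIH1, chr2:162318686-162318715, minus strand: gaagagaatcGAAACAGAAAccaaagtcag
OAS3, chr12:112938321-112938350, plus strand: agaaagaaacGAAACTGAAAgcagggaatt
OAS3, chr12:112938444-112938473, plus strand: gttcggagagccgggcggGAAAACGAAAcc
The ISG15 window and the first IFIH1 window each hold 2 overlapping matches. Those of the first IFIH1 window read on the opposite strand. The matches begin 113 bases before the start of ISG15, 159 and 21 bases before that of IFIH1, and 143 and 12 bases before that of OAS3. A match is a description of the sequence, and binding was not measured.

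Pairs of libraries correlated across genes with a Pearson's r between 0.9907 and 0.9984 on the log2 scale. All 10 K562 erythroid and myeloid markers were listed, with gamma globin HBG2 at 3070.2 ± 453 FPKM in sh-luc and 2759 ± 187 FPKM in sh-IUR1 (SD, n = 3 in each group). Of these markers 9 had a lower and 1 a higher mean log2 level in sh-IUR1, against 58.0% higher among all genes tested. The unnumbered sh-luc library held the highest value of 7 of the 10. Without it 6 were lower and 4 higher (52.7% higher among all genes). The median log2 fold change of the markers was -0.081 with that library and -0.028 without it. The 1 marker higher with all libraries was CD33, at 1.91, 1.05 and 1.43 FPKM in sh-luc and at 2.33, 2.20 and 1.77 FPKM in sh-IUR1. CD33 was named after its values were seen. Its log2 fold change was 0.34 (unadjusted p = 0.0247, adjusted p = 0.930 in limma). Without the unnumbered sh-luc library it was 0.47 (unadjusted p = 0.00139, adjusted p = 0.9997 in limma). Of all genes tested, 2.65% had an unadjusted p under 0.05 in limma with all libraries and 1.80% without that library. Of 8 markers of other blood cells, CD14, MS4A1 and NCAM1 were not listed and CD3E was below the filter on low values, whereas LYZ was at 113 ± 5.90 and 115 ± 1.55 FPKM (SD, n = 3). The unnumbered sh-luc library stood apart from the other 5. All 21 listed genes of the integrated stress response had their lowest value there, and their mean log2(FPKM + 1) was 5.34 in that library and between 6.04 and 6.49 in the others. Over all 12276 genes tested, 38.4% were lowest and 24.1% highest in that library, so the difference of each member is also given without it. Rows for the knocked-down lncRNA itself were not analysed here, and the knockdown was not checked in these libraries.

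The sensing genes spanned 88.2-fold in mean FPKM over the 6 libraries. IRF3 was the most abundant at 63.5 FPKM, above 88.4% of the genes in the table. ISG15 (39.3 FPKM) and ADAR (39.0 FPKM) followed, and these neighbours did not differ beyond their spread, ISG15 being the higher in 3 of 6 libraries. MAVS at 10.3 FPKM and TBK1 at 7.62 FPKM formed the middle of the order. MAVS was above TBK1 in 6 of 6 libraries, and their ranges did not overlap. The RNA helicases were scarce, with RIGI at 2.39, IFIH1 at 1.23 and DHX58 at 1.05 FPKM. The ranges of IFIH1 and DHX58 overlapped, and IFIH1 was the higher in 4 of 6 libraries. OAS3 was the lowest of the group at 0.720 FPKM and at the 12.4th percentile of the table. Its range overlapped that of DHX58, although DHX58 was above OAS3 in 6 of 6 libraries. Transcripts of the signalling components were thus more abundant than those of the receptors upstream of them. The level of RIGI is uncertain, because another gene model spans nearly all of its exon bases, as described below.

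**Figure D1:**
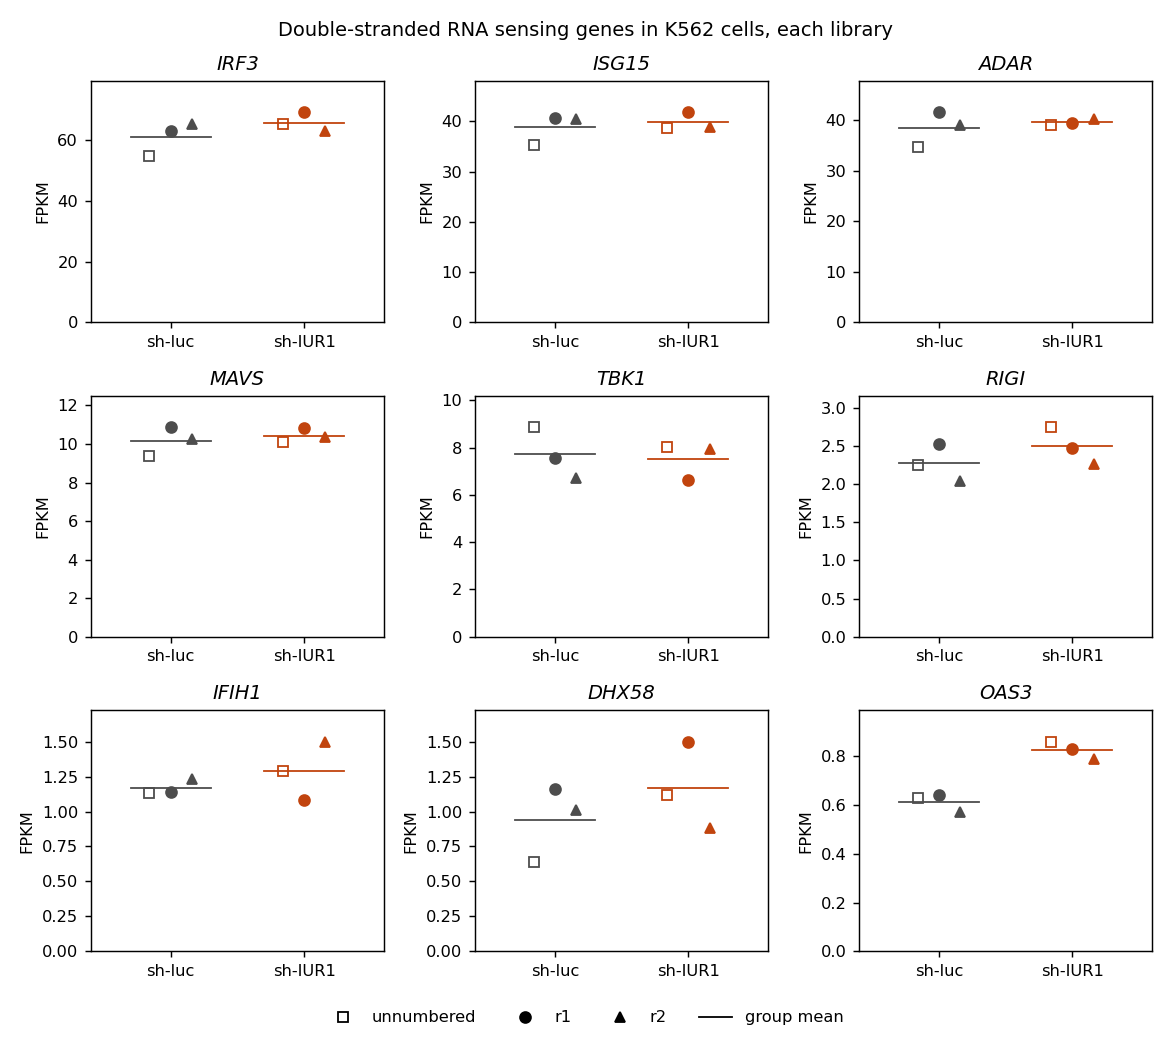
FPKM of the 9 listed genes in each library, in order of mean level, with sh-luc in grey and sh-IUR1 in orange. Symbols give the replicate label, horizontal lines are group means, and each axis starts at 0. The groups overlapped for every gene except OAS3, where the sh-luc libraries lay between 0.57 and 0.64 FPKM and the sh-IUR1 libraries between 0.79 and 0.86 FPKM.

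To ask whether knockdown of lncRNA-IUR1 was accompanied by a change in these genes, log2(FPKM + 1) was compared between the groups with limma over all 12276 genes tested. With Benjamini-Hochberg adjustment, 0 of the 9 listed genes passed the threshold of 0.05, and 0 of all genes tested did so (0%). Without adjustment, limma gave a p-value under 0.05 for 1 of the 9, OAS3, and for 2.65% of all genes (325 genes). An unmoderated linear model gave 344 genes, or 2.80%, at the same unadjusted cutoff and 0 after adjustment. The labels do not say which libraries came from separate cultures, whereas the methods speak of independent groups of cells, so the p-values measure the spread between these libraries. In bulk RNA, a change in every cell and a change in some cells cannot be told apart.

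OAS3 (identifier 4940), an oligoadenylate synthetase that double-stranded RNA activates, lies on chromosome 12 from 112938474 to 112973251, next to OAS1 (112906962 to 112933219). Its transcript has 16 exons. OAS3 was at 0.63 (unnumbered), 0.64 (r1) and 0.57 (r2) FPKM in the sh-luc libraries. The sh-IUR1 libraries held 0.86, 0.83 and 0.79 FPKM. Every sh-IUR1 library was thus above every sh-luc library, a separation seen for 1 of the 9 listed genes and for 7.07% of all genes tested (4.04% with sh-IUR1 the higher group). Among the 1644 genes tested with a mean below 1 FPKM, as OAS3 has, the share was 9.61% (6.57% with sh-IUR1 the higher group). The means were 0.613 ± 0.0379 and 0.827 ± 0.0351 FPKM (SD, n = 3), a ratio of 1.35. The table holds 0 genes whose SD over the 6 libraries is under 0.05 FPKM, and both within-group SDs of OAS3 were below that value, so a gene with this spread within groups would not be listed without a difference between them. On the scale of log2(FPKM + 1) the difference was 0.18 with a standard error of 0.071 and a 95% interval of 0.020 to 0.34. The two-sided exact permutation test gave p = 0.10, the smallest that 3 libraries against 3 allow. In limma the unadjusted p was 0.0312 and the adjusted p was 0.930, and 162 genes, 1.32% of those tested, had an unadjusted p at least as small. Without the unnumbered sh-luc library the log2 fold change of OAS3 was 0.19 (unadjusted p = 0.0492, adjusted p = 0.9997 in limma), so the difference was as large without it. OAS3 was then again the 1 member of the 9 under 0.05 without adjustment (1.80% of all genes) and the 1 without overlap (12.6% of all genes). With each of the 6 libraries left out in turn, 1 or 2 members did not overlap between the groups, against 11.9% to 25.2% of all genes. Its unadjusted p in limma was above 0.05 with quantile normalization (0.0790), with a replicate block (0.0555), without sh-luc r2 (0.0964), without the unnumbered sh-IUR1 library (0.0893) and without sh-IUR1 r1 (0.0649). On this scale the change of a gene below 1 FPKM is understated, and with a pseudocount of 0.1 the log2 fold change was 0.38. All 6599 bases of the OAS3 transcript lie inside the span of an antisense lncRNA gene (ENSG00000257452). The strand setting of the counting is not given in the sources used here, so reads of the 2 genes cannot be told apart.

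The receptors gave differences within their spread. RIGI (identifier 23586, chromosome 9 from 32455302 to 32526196) encodes RIG-I, which recognizes short double-stranded RNA with a 5′ triphosphate. It was at 2.25, 2.53 and 2.04 FPKM in sh-luc (unnumbered, r1, r2) and at 2.75, 2.47 and 2.27 FPKM in sh-IUR1. The highest value was in the unnumbered sh-IUR1 library, and the groups overlapped. The log2 fold change was 0.10 (standard error 0.092, adjusted p = 0.930 in limma) with all libraries and 0.092 without the unnumbered sh-luc library. Of the 4628 exon bases of RIGI, 4607 lie within the span of a second protein-coding gene model on the same strand (ENSG00000288684). Its counts are therefore uncertain where reads were split between them.

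IFIH1 (identifier 64135, chromosome 2 from 162267074 to 162318684) encodes MDA5, the sensor of long double-stranded RNA. Control libraries had 1.13, 1.14 and 1.23 FPKM, and knockdown libraries had 1.29, 1.08 and 1.50 FPKM. Both the lowest and the highest of the 6 values were in sh-IUR1. The log2 fold change was 0.076 (standard error 0.088, adjusted p = 0.931 in limma) with all libraries and 0.064 without the unnumbered sh-luc library. DHX58 (identifier 79132, chromosome 17 from 42101411 to 42112714) encodes LGP2, a related helicase that lacks the signalling domains and modulates the other receptors. Its values were 0.64, 1.16 and 1.01 FPKM in sh-luc and 1.12, 1.50 and 0.88 FPKM in sh-IUR1, the most variable of the 9 genes with a coefficient of variation of 27.5%. The log2 fold change of DHX58 was 0.16 (standard error 0.13, adjusted p = 0.930 in limma) with all libraries and 0.046 without the unnumbered sh-luc library, where it was lowest. The 95% intervals with all libraries were -0.11 to 0.30 for RIGI, -0.12 to 0.27 for IFIH1 and -0.13 to 0.45 for DHX58.

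**Figure D2:**
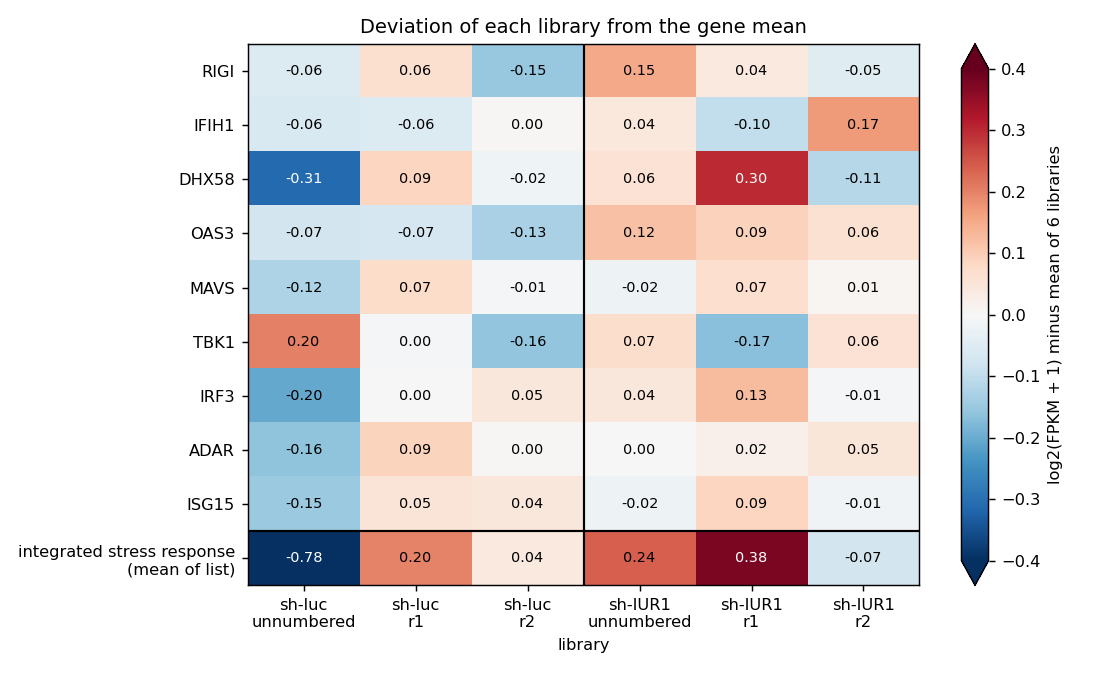
Heatmap of log2(FPKM + 1) of each gene in each library minus the gene's mean over the 6 libraries, with the mean of 21 integrated stress response genes in the bottom row (colours end at 0.4 on either side of 0). In the unnumbered sh-luc library the stress list is 0.78 below its mean, DHX58, IRF3, ADAR, ISG15 and MAVS are at their lowest and TBK1 is at its highest, whereas OAS3 is below its mean in all 3 sh-luc libraries and above it in all 3 sh-IUR1 libraries.

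In the signalling relay the groups overlapped for all 3 genes, MAVS, TBK1 and IRF3. MAVS (identifier 57506, chromosome 20 from 3846834 to 3876118), the mitochondrial adaptor, was at 9.36, 10.88 and 10.25 FPKM in sh-luc and at 10.13, 10.83 and 10.35 FPKM in sh-IUR1. It was the least variable gene of the group, with a coefficient of variation of 5.38%. The log2 fold change was 0.037 (adjusted p = 0.954 in limma) and -0.016 without the unnumbered sh-luc library. TBK1 (identifier 29110, chromosome 12 from 64452120 to 64502114), the kinase that phosphorylates IRF3, was at 8.87, 7.56 and 6.70 FPKM in sh-luc and at 8.02, 6.64 and 7.93 FPKM in sh-IUR1. TBK1 was the only listed member with a lower mean in sh-IUR1, with a log2 fold change of -0.027 (adjusted p = 0.970 in limma), and it was highest in the unnumbered sh-luc library. Without that library the value was 0.067. Of the exon bases of TBK1, 857 lie in the span of a lncRNA gene on the same strand and 68 in that of another on the opposite strand, so reads there are uncertain.

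IRF3 (identifier 3661, chromosome 19 from 49659572 to 49665857), the transcription factor at the end of the relay, was at 54.79, 63.20 and 65.39 FPKM in sh-luc. In sh-IUR1 it was at 65.29, 69.18 and 63.01 FPKM. The group means were 61.1 ± 5.60 and 65.8 ± 3.12 FPKM (SD, n = 3), and the unnumbered sh-luc library was the lowest of the 6. The log2 fold change was 0.11 (standard error 0.076, adjusted p = 0.930 in limma) with it and 0.033 without it. Of the exon bases of IRF3, 227 lie inside the span of BCL2L12 on the opposite strand, and reads there could belong to either gene.

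The remaining effectors were ADAR and ISG15. ADAR (identifier 103, chromosome 1 from 154582057 to 154627997) was at 34.72, 41.50 and 39.06 FPKM in sh-luc and at 38.99, 39.46 and 40.26 FPKM in sh-IUR1. Its sh-IUR1 libraries lay within the range of the sh-luc libraries, and the log2 fold change of 0.045 (adjusted p = 0.945 in limma) turned to -0.025 without the unnumbered sh-luc library. ISG15 (identifier 9636, chromosome 1 from 1013497 to 1014540), a ubiquitin-like protein that is attached to other proteins after interferon treatment, was at 35.36, 40.70 and 40.53 FPKM in sh-luc. The sh-IUR1 libraries held 38.70, 41.76 and 38.90 FPKM of ISG15. The ratio of the group means was 1.02, and the log2 fold change was 0.035 (adjusted p = 0.954 in limma) with all libraries and -0.030 without the unnumbered sh-luc library. The 95% intervals with all libraries, not adjusted for the number of genes, were -0.12 to 0.21 for ADAR and -0.13 to 0.20 for ISG15.

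Across the 9 genes, 8 had a higher and 1 a lower mean log2 level in sh-IUR1, against 58.0% higher among all genes tested. The median log2 fold change was 0.076 for the 9 genes and 0.019 for all genes. Without the unnumbered sh-luc library 6 were higher and 3 lower (52.7% higher among all genes), with medians of 0.046 and 0.0047. That library held the lowest value of 5 of the 9 genes (DHX58, MAVS, IRF3, ADAR and ISG15) and the highest value of TBK1, together 6 of 9 genes, and it was the lowest or highest of the 6 for 62.5% of all genes. Whether the low stress genes of that library are linked to its values for these members was not tested.

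**Figure D3:**
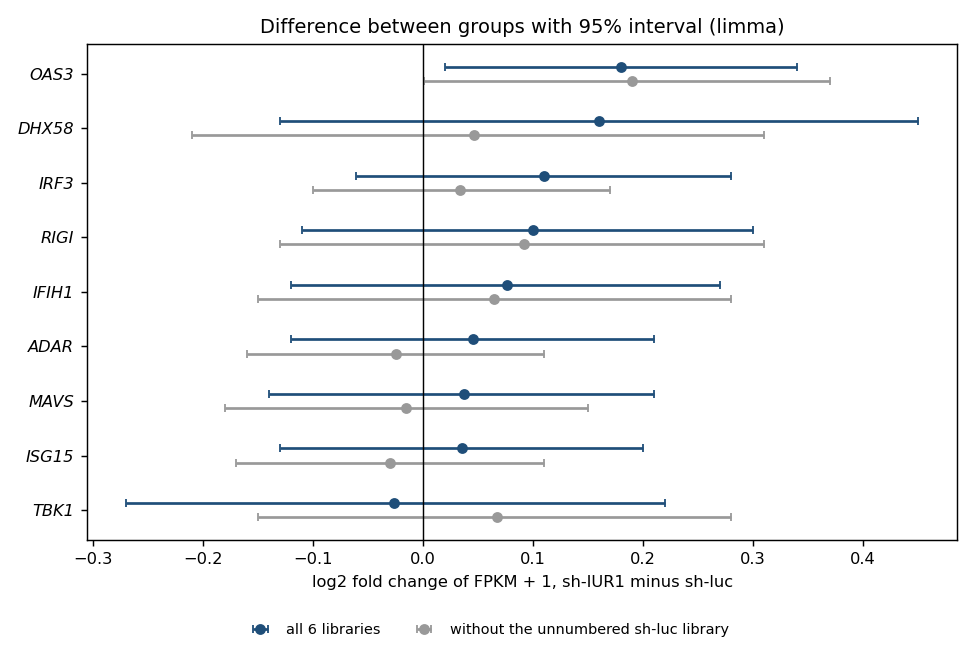
Log2 fold change of FPKM + 1 (sh-IUR1 minus sh-luc) of the 9 genes with 95% intervals from limma, not adjusted for the number of genes, in blue with all 6 libraries and in grey without the unnumbered sh-luc library. With all libraries the interval of OAS3 (0.020 to 0.34) is the only one that leaves out 0. MAVS, ADAR, ISG15 and TBK1 change sign between the estimates.

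The wider pathway was described with lists of other genes. Of 24 other RNA sensors and double-stranded RNA-binding effectors, 15 were listed and 14 were tested. In sh-IUR1, 3 had a higher and 11 a lower mean (58.0% of all genes were higher), and 0 passed the adjusted threshold in limma. The unnumbered sh-luc library held the highest value of 7 of the 14 (24.1% of all genes). Without it 5 were higher and 9 lower (52.7% of all genes were higher). The median log2 fold change was -0.053 with that library and -0.054 without it. The oligoadenylate synthetase relatives OAS2 and OASL were not listed. EIF2AK2, which encodes the kinase PKR that halts translation on binding double-stranded RNA, was at 7.86, 8.31 and 7.89 FPKM in sh-luc and at 7.53, 7.71 and 7.68 FPKM in sh-IUR1. Its groups did not overlap, in the direction opposite to OAS3, with a log2 fold change of -0.062 (standard error 0.072, adjusted p = 0.931 in limma). ZC3HAV1, an antiviral protein that binds viral RNA, had no overlap either, at 14.6 ± 1.29 and 13.4 ± 0.291 FPKM (SD, n = 3) and a log2 fold change of -0.12 (adjusted p = 0.930 in limma). ZC3HAV1 was highest in the unnumbered sh-luc library, at 16.09 FPKM, and its log2 fold change was -0.050 without it. These were the 2 genes of the list without overlap, and over all genes 3.03% were lower in sh-IUR1 without overlap.

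Of 23 adaptors, kinases and ubiquitin ligases of the MAVS branch, 22 were listed and tested, and the median log2 fold change was 0.011 (-0.0070 without the unnumbered sh-luc library) with 0 genes past the threshold. TRIM25, a ubiquitin ligase that activates RIG-I, was at 30.7 ± 4.99 and 32.6 ± 2.34 FPKM (SD, n = 3). The log2 fold change of TRIM25 was 0.093 with all libraries and -0.044 without the unnumbered sh-luc library, where it was lowest. IKBKE, a kinase closely related to TBK1, was at 1.24, 2.0 and 2.18 FPKM in sh-luc and at 2.32, 2.53 and 2.08 FPKM in sh-IUR1. Its log2 fold change of 0.25 (adjusted p = 0.930 in limma) was 0.10 without the unnumbered sh-luc library. IRF7, the interferon-inducible relative of IRF3, was at 1.90 ± 0.276 and 1.89 ± 0.194 FPKM (SD, n = 3), far below IRF3. Among 18 negative regulators 15 were tested, with 11 higher, 4 lower, 0 called and a median of 0.052. In that list 10 genes were lowest in the unnumbered sh-luc library, and the median was 0.021 without it.

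Transcripts of the interferon receptor were present in both groups, with IFNAR1 at 16.4 ± 0.855 and 16.5 ± 0.248 FPKM and IFNAR2 at 17.4 ± 0.570 and 17.2 ± 1.17 FPKM (SD, n = 3). The interferons of the list (IFNB1, IFNL1, IFNL2 and IFNL3) were not listed in the table, and the reason was not tested. STAT2 and IRF9, which act together on the response element shown above, had log2 fold changes of -0.0058 and -0.12, with adjusted p-values of 0.993 and 0.930 in limma. Without the unnumbered sh-luc library they were -0.093 and -0.080. All 7 tested genes of this list had a median of -0.020 (-0.040 without that library), and 0 were called. The ISG15 conjugation list had 4 of 7 genes tested, all with a higher mean in sh-IUR1 (58.0% of all genes) and 0 called. Its median log2 fold change was 0.11 with all libraries and 0.089 without the unnumbered sh-luc library. That library held the lowest value of 3 of the 4 genes, and all 4 stayed higher without it (52.7% of all genes). UBE2L6, the conjugating enzyme for ISG15, was at 39.1 ± 1.24 and 42.9 ± 2.81 FPKM (SD, n = 3), and USP18, which removes ISG15, at 14.0 ± 1.86 and 15.8 ± 1.34 FPKM. Their log2 fold changes of 0.13 and 0.17 were 0.11 and 0.066 without the unnumbered sh-luc library.

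Of 30 interferon-stimulated effectors 22 were tested. Their median log2 fold change was -0.019 (-0.040 without the unnumbered sh-luc library), with 8 higher, 14 lower and 0 called. A single gene of this list had no overlap between the groups (1 of 22, against 7.07% of all genes tested), RSAD2 (viperin), an antiviral enzyme named after its values were seen. RSAD2 was at 0.69, 0.68 and 0.65 FPKM in sh-luc and at 0.76, 0.80 and 0.72 FPKM in sh-IUR1, with a log2 fold change of 0.073 (adjusted p = 0.930 in limma) that was 0.080 without the unnumbered sh-luc library. Its within-group SDs, 0.0208 and 0.0400 FPKM, were also below 0.05 FPKM. Of 8 genes of cytosolic DNA sensing 5 were tested, with 4 higher, 1 lower, 0 called and a median of 0.086 (0.022 without the unnumbered sh-luc library), and the sensor CGAS was not listed. STING1, the adaptor of that branch, was at 32.6 ± 2.87 and 34.7 ± 3.48 FPKM (SD, n = 3). Its log2 fold change was 0.086 with all libraries and 0.013 without the unnumbered sh-luc library, where it was lowest.

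**Figure D4:**
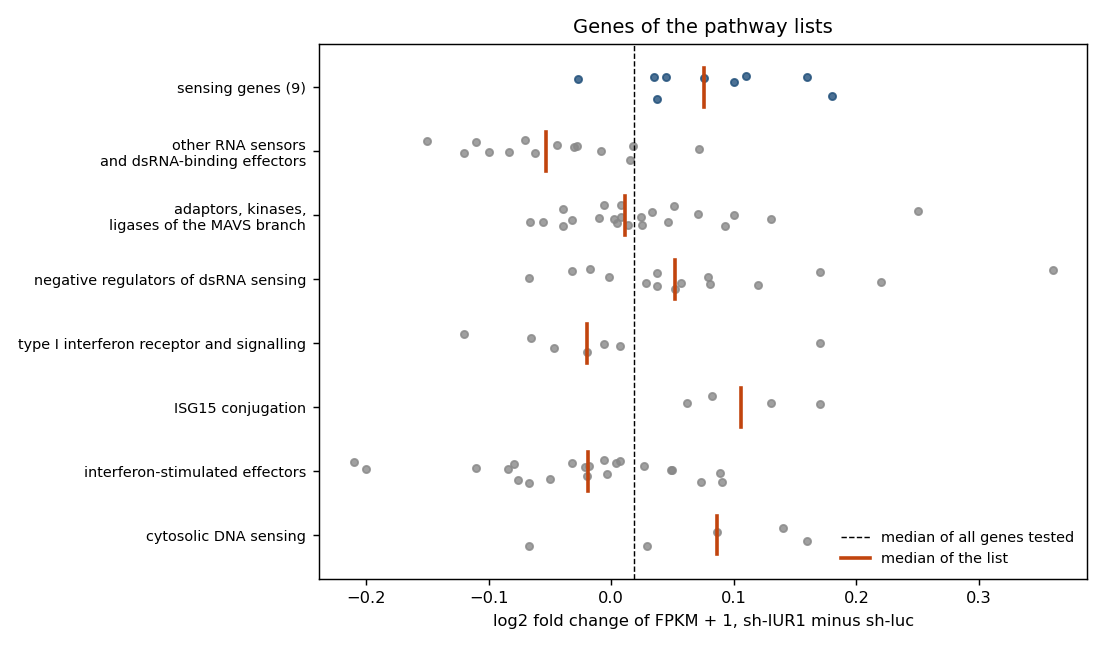
Log2 fold change of FPKM + 1 (sh-IUR1 minus sh-luc) of each tested gene in the pathway lists, with the sensing genes in blue, list medians in orange and the median of all genes tested (0.019) as a dashed line. The list medians lie between -0.053 and 0.11, and the points of each list spread across 0 except those of ISG15 conjugation.

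PKR also feeds the integrated stress response, in which phosphorylation of a translation initiation factor raises translation of ATF4 and transcription of its targets. ATF4 was at 279 ± 23.1 FPKM in sh-luc and 288 ± 9.07 FPKM in sh-IUR1, DDIT3 at 75.9 ± 29.8 and 99.1 ± 12.8 FPKM and ASNS at 226 ± 45.7 and 267 ± 48.8 FPKM (SD, n = 3). Their log2 fold changes of 0.048, 0.46 and 0.24 were -0.022, 0.084 and 0.068 without the unnumbered sh-luc library. For EIF2AK2 itself the value without that library was -0.075.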

How the data were processed

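RNA of K562 cells was sequenced in 6 libraries, 3 sh-luc and 3 sh-IUR1. According to the methods and the submitters' processing notes, the authors trimmed and masked reads, mapped them to hg38 and computed RPKM with SAMtools 0.1.19. The aligner and annotation are not given in the sources used here. The deposited values are named FPKM in the file headers and carry 2 decimals. The deposited score of each gene, the authors' z-score of its FPKM over the 6 libraries, the cluster number (1 of 9) and the membership, a fraction deposited by the authors, were not used in tests. The deposited table holds 0 genes with a standard deviation under 0.05 FPKM.

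RefSeq GRCh38.p14 gave symbols for 12363 of 12486 genes. After removal of genes whose mean was below 0.1 FPKM, log2(FPKM + 1) was compared in R 4.3.3 using limma 3.58.1, by lmFit and by eBayes with trend, adjusted over all 12276 genes by Benjamini-Hochberg. The step was tested on simulated data with larger differences than any measured here. That test therefore does not show whether differences of the size seen in the members would be found. Whole fragments were not recovered (at most 35.5% of 124 low values, within 0.1 of a whole number), so the fragments behind each value are unknown and no count test was run. No pair of libraries was identical. The members and lists were chosen with earlier results of these data known. Named were all members, fixed pathway genes whatever their values, and genes of each list without overlap and with a mean of at least 1 FPKM (the 2 per direction with the smallest p). RSAD2 (mean 0.717 FPKM), UBE2L6, USP18, STING1 and the cell markers named fell outside this rule and were chosen after their values were seen. Some of these pathway genes are not reported here by name, but remain in the counts and medians of their lists. Alternatives were another pseudocount, filters, scalings, eBayes without trend, a replicate block, an unmoderated model and each library left out. Other steps used Python 3.11.15 with pandas 2.3.3, numpy 2.4.6 and matplotlib 3.10.9.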

Additional observations from a re-analysis of the deposited data

How the results depend on the processing

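The 9 genes gave 125 log2 fold changes under the alternatives, of which 119 kept their direction and stayed on their side of the threshold, with adjusted p-values between 0.667 and 0.9997 in limma. Without moderation and without adjustment, the linear model called 344 genes and 1 of the 9, OAS3, whose log2 fold change stayed at 0.18. Fits that each left out 1 library gave ranges of -0.016 to 0.083 for MAVS, -0.11 to 0.067 for TBK1, -0.025 to 0.10 for ADAR and -0.030 to 0.069 for ISG15. The signs of these 4 turned without the unnumbered sh-luc library (-0.016, 0.067, -0.025 and -0.030), and that of TBK1 also without sh-IUR1 r1 (0.051). In the same fits OAS3 ranged from 0.16 to 0.19, and 0 genes were called, with 158 to 856 genes at an unadjusted p-value under 0.05. The count of members without overlap between groups ranged from 1 to 2, with RIGI added without sh-luc r1 (22.0% of all genes without overlap) and IFIH1 added without sh-IUR1 r1 (14.2%), against 7.07% with all libraries and 11.9% to 25.2% when 1 library is left out. It was 0 with a minimum mean of 1 FPKM, which removes OAS3. The MAVS branch median moved to -0.0082 with median-ratio scaling and ranged from -0.0070 to 0.037 over the left-out libraries, and the ISG15 conjugation median was 0.16 with a pseudocount of 0.1; the cause was not tested. In the fit with a replicate block OAS3 was at 0.18 (adjusted p = 0.947 in limma), 533 genes had an unadjusted p-value under 0.05 and 0 were called. Same-numbered deviations from the group means correlated at 0.04 (unnumbered), 0.39 (r1) and -0.34 (r2). With 3 libraries per group, these values do not settle whether the numbers pair the libraries. The FPKM carry 2 decimals and no fragment counts, which limits genes below 1 FPKM such as OAS3.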
